A study of Mus musculus with 8 samples.

Results

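Liver sinusoidal endothelial cells, the fenestrated cells that line the capillaries of the liver, carry the regulators that turn iron and oxidant load into changes of transcription. The 9 genes described here are the cap'n'collar (CNC) factors NRF2 (*Nfe2l2*) and NRF1 (*Nfe2l1*), the NRF2 inhibitor *Keap1*, the repressors *Bach1* and *Bach2*, the small MAF partners *Mafg*, *Maff* and *Mafk*, and the feedback gene *Osgin1*. They were taken by symbol from the 23930 RefSeq targets of the assay, and all 9 were measured. All 9 also passed the filter on low counts, among 14601 targets tested.

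The iron citrate group held young wild-type female Balb/c mice given 150 µg of iron citrate into a vein, and the citrate buffer group held young wild-type female Balb/c mice given 0.05 M citrate buffer in the same way. Cells were taken 5 h after injection and sorted as CD45-dim, STAB2-high, CD146-high, with 4 libraries per group, 1 mouse each; exact ages are not given in the labels. Both groups are sorted cells of the whole liver, which can hold cells of other kinds. The series' title names NRF2, the p38 kinase, ETS1 and *Bmp6* as the subjects of the study.

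NRF2 is a basic leucine zipper activator that KEAP1, an adaptor of the CUL3 ubiquitin ligase, binds and sends for degradation until oxidants or electrophiles modify KEAP1. NRF2 then pairs with a small MAF protein on antioxidant response elements. BACH1 pairs with the same small MAFs on overlapping elements and represses genes of haem and iron handling until haem binds it. Small MAFs have no activation domain of their own, so their pairs with each other repress and their pairs with CNC factors follow the partner.

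Libraries held 7969520 to 11314659 counts on targets. Values below are CPM, which are counts scaled to library size with TMM factors, and each gene is read through 1 amplicon, so levels are compared between libraries and not between genes. *Stab2*, a marker of sinusoidal endothelium whose protein was used in the sort, was at 879 to 1169 CPM in iron citrate libraries and 901 to 1222 CPM in citrate buffer libraries. *Mcam*, the gene of CD146, was at 165 to 193 CPM in iron citrate libraries and 204 to 285 CPM in citrate buffer libraries. Its groups did not overlap, and its log2 fold change was -0.50 (edgeR adjusted p = 0.239). All iron citrate values lay below all citrate buffer values in 2.29% of all tested targets. Citrate buffer replicate 1 stood apart. Its profile had a median r of 0.940 with the rest of the citrate buffer group, where each other library reached 0.984 to 0.993 within its group. Receptor and keratin-associated families that liver does not express took 2.42% of its counts. They took 0.983% in citrate buffer replicate 2 and 0.295% to 0.611% in the other 6 libraries. Among the 9 genes, 7 had their lowest value of all libraries in citrate buffer replicate 1, as did 36.6% of all tested targets, so each member's fold change below is given with and without that library, as are the ratios and list counts that it moved. The summed level of 14 sinusoidal markers was 25870 to 27530 CPM in iron citrate libraries and 15580 to 31300 CPM in citrate buffer libraries, lowest in citrate buffer replicate 1. Of the 2 most abundant, *Clec4g* had 6867 CPM in that library and 9353 to 11680 CPM in the other citrate buffer libraries. *Oit3* had 730 CPM there and 1836 to 3314 CPM in the others, while *Fcgr2b* was not lower there (58.9 CPM against 46.0 to 49.4 CPM). Summed markers of T and NK cells were at 899 to 1106 CPM in iron citrate libraries and 821 to 2379 CPM in citrate buffer libraries, highest in citrate buffer replicate 1. *Gzma* gave 1261 CPM of the sum in that library and had 265 to 384 CPM in the other citrate buffer libraries. *Cd3g* and *Nkg7* were also highest there (503 and 300 CPM), while *Cd8a* was not and *Cd4* was lowest there (21.3 CPM). No gene of the 10 marker lists was called by edgeR, and the part of other cell types in the results was not tested. In sorted bulk RNA, fewer cells expressing a gene and less RNA per cell cannot be told apart.

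After iron citrate *Osgin1* and *Mafg* rose, no member fell, and the other 7 did not pass the test over all genes (edgeR's quasi-likelihood test, Benjamini-Hochberg adjusted p under 0.05). *Osgin1*, the oxidant-induced growth inhibitor, rose 7.09-fold and *Mafg* 1.95-fold. Of all tested targets, 0.527% were called higher and 0.0274% lower. At an unadjusted p under 0.05, 6 of the 9 were higher and 0 lower, beside 6.57% and 8% of all tested targets. DESeq2 called 4 higher and 0 lower, beside 1.94% and 0.473% of all targets, and limma-voom 3 higher and 0 lower, beside 1.69% and 0.295%. Without citrate buffer replicate 1 edgeR called 4 higher and 0 lower (1.5% and 0.258% of targets), and without citrate buffer replicates 1 and 2 it called 3 higher and 0 lower (1.35% and 0.546%). All 9 log2 fold changes were above 0, as were 49% of those of all tested targets, and their median was 0.87, beside -0.01 over all targets. In 6 genes every iron citrate value lay above every citrate buffer value, which held for 6.36% of all targets, and in 0 genes did they all lie below, which held for 2.29%.

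**Figure D1:**
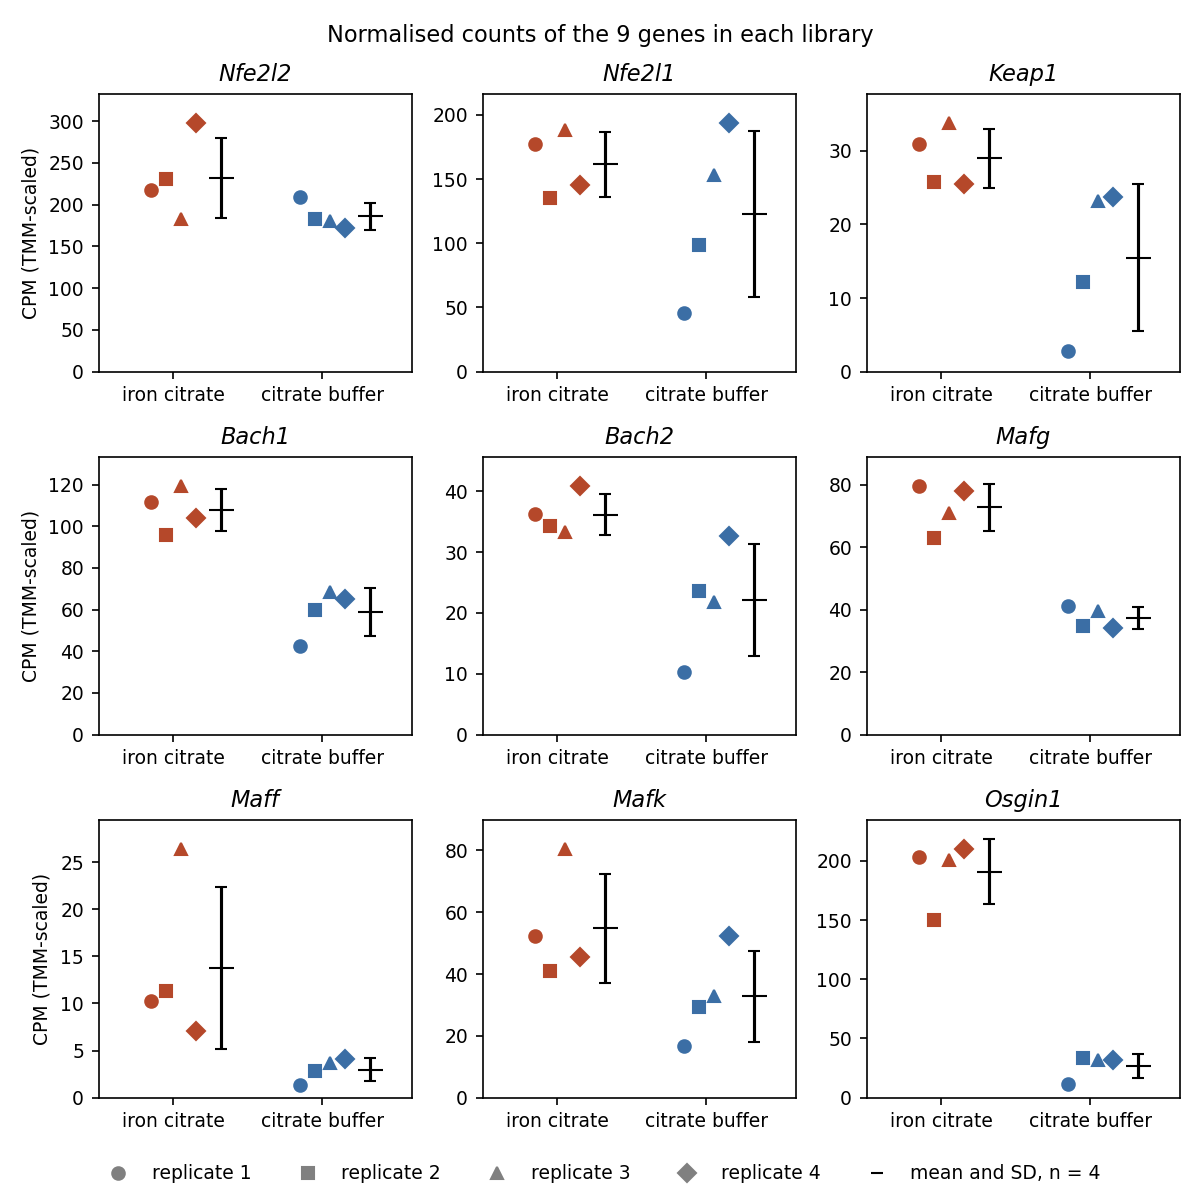
Normalised counts of the 9 genes (y axis, CPM scaled with TMM factors, linear from 0) in each iron citrate library (red) and citrate buffer library (blue), with the replicate shown by the marker and the mean and SD of 4 libraries beside each group. Groups were apart for *Keap1*, *Bach1*, *Bach2*, *Mafg*, *Maff* and *Osgin1* and overlapped for *Nfe2l2*, *Nfe2l1* and *Mafk*, and citrate buffer replicate 1 was lowest in every panel except *Nfe2l2* and *Mafg*.

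*Nfe2l2*, the gene of NRF2, had 217, 231, 183 and 297.5 CPM in iron citrate replicates 1 to 4, against 209, 182, 181 and 172 CPM in citrate buffer replicates 1 to 4. The lowest iron citrate library lay inside the buffer range and the highest buffer library was citrate buffer replicate 1. The means were 232 ± 47.9 CPM in iron citrate libraries and 186 ± 16.1 CPM in citrate buffer libraries (SD, n = 4 each), and the fitted log2 fold change was 0.32 (SE 0.16, edgeR adjusted p = 0.333). Without citrate buffer replicate 1 the log2 fold change was 0.38 (SE 0.15, edgeR adjusted p = 0.278). Without iron citrate replicate 4, the highest library, it was 0.18 (SE 0.14, edgeR adjusted p = 0.54), and it was 0.21 with library totals or upper-quartile factors. The mRNA does not show how much NRF2 protein escaped KEAP1, which was not measured here.

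*Nfe2l1* encodes NRF1, a CNC factor of the endoplasmic reticulum membrane that is known for inducing proteasome genes. It had 177, 135, 188.5 and 145.8 CPM in iron citrate replicates 1 to 4, against 45.3, 98.4, 154 and 193.5 CPM in citrate buffer replicates 1 to 4. The buffer libraries spanned the iron citrate range, with the highest value of all in citrate buffer replicate 4. The log2 fold change was 0.40 (SE 0.36, edgeR adjusted p = 0.558). It was 0.13 (SE 0.19) without citrate buffer replicate 1 and -0.10 (SE 0.15) without citrate buffer replicates 1 and 2, with edgeR adjusted p-values of 0.793 and 0.888. Without citrate buffer replicate 4 it was 0.71.

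*Keap1*, the inhibitor of NRF2, had 30.9, 25.8, 33.7 and 25.45 CPM in iron citrate replicates 1 to 4, against 2.86, 12.1, 23.15 and 23.7 CPM in citrate buffer replicates 1 to 4. The groups did not overlap, but citrate buffer replicates 3 and 4 came close to the lowest iron citrate library. The lowest value rested on 30 counts, with an exact 95% binomial interval of 1.93 to 4.08 CPM that covers counting error only. The log2 fold change was 0.91 (SE 0.50, edgeR adjusted p = 0.345), and without citrate buffer replicate 1 it was 0.57 (SE 0.21, edgeR adjusted p = 0.257).

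*Bach1* had 112, 95.6, 119 and 104 CPM in iron citrate replicates 1 to 4, against 42.6, 60.0, 68.4 and 65.3 CPM in citrate buffer replicates 1 to 4. Every iron citrate library stood above every buffer library, with a gap between 68.4 and 95.6 CPM. The means were 108 ± 10.1 CPM in iron citrate libraries and 59.1 ± 11.5 CPM in citrate buffer libraries (SD, n = 4 each), and the log2 fold change was 0.87 (SE 0.16). Over all genes this missed the threshold (edgeR adjusted p = 0.061). It passed without citrate buffer replicate 1 (log2 fold change 0.74, SE 0.12, edgeR adjusted p = 0.00438), and with DESeq2 (adjusted p = 0.000112) and limma-voom (adjusted p = 0.00483). Of the 8 fits with 1 library left out, *Bach1* was called only in that 1, and in 7 of all 17 alternatives. With the replicate block it was not called (edgeR adjusted p = 0.146).

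*Bach2*, the paralogue best known from B cells, had 36.2, 34.2, 33.3 and 40.8 CPM in iron citrate replicates 1 to 4, against 10.3, 23.6, 21.8 and 32.6 CPM in citrate buffer replicates 1 to 4. The groups were barely apart, between iron citrate replicate 3 and citrate buffer replicate 4. The log2 fold change was 0.71 (SE 0.29, edgeR adjusted p = 0.333), and it was 0.48 (SE 0.16) without citrate buffer replicate 1 (edgeR adjusted p = 0.187). B cell markers were present in every library. Their summed level over 7 measured genes was 149 to 298 CPM in iron citrate libraries and 74.7 to 243 CPM in citrate buffer libraries, and none was at 0 in every library. None of the 7 was called by edgeR, and the libraries with the most B cell signal, iron citrate replicate 4 and citrate buffer replicate 4, were also those with the most *Bach2* in their group. The part of B cells in the *Bach2* values was not tested.

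The small MAFs are the partners that CNC and BACH factors share. *Mafg* had 79.5, 62.9, 70.9 and 77.9 CPM in iron citrate replicates 1 to 4, against 41.2, 34.8, 39.45 and 34.1 CPM in citrate buffer replicates 1 to 4. All iron citrate libraries were above all buffer libraries, and the spread within each group was small. The means were 72.8 ± 7.58 CPM in iron citrate libraries and 37.4 ± 3.50 CPM in citrate buffer libraries (SD, n = 4 each), and the fitted log2 fold change was 0.96 (SE 0.13, edgeR adjusted p = 0.00894). Without citrate buffer replicate 1 the log2 fold change was 1.01 (SE 0.13, edgeR adjusted p = 0.000559). The call was lost without citrate buffer replicate 2 (edgeR adjusted p = 0.057) and without iron citrate replicate 1 (edgeR adjusted p = 0.0514). Platelets and megakaryocytes use *Mafg* as well, and the summed level of their 6 measured markers was 22.9 to 28.9 CPM in iron citrate libraries and 21.6 to 50.1 CPM in citrate buffer libraries, with the highest sum in citrate buffer replicate 1.

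*Maff* was the least counted member, with 10.3, 11.3, 26.4 and 7.07 CPM in iron citrate replicates 1 to 4, against 1.33, 2.84, 3.65 and 4.11 CPM in citrate buffer replicates 1 to 4. Iron citrate replicate 3 stood far above the rest of its group, yet the lowest iron citrate library was above the highest buffer library. The buffer values rested on 14 to 41 counts, and the exact 95% binomial interval of the lowest was 0.729 to 2.24 CPM. The log2 fold change was 2.21 (SE 0.50, edgeR adjusted p = 0.14). It was 1.97 (SE 0.41) without citrate buffer replicate 1, which passed (edgeR adjusted p = 0.0225), as did DESeq2 in all 8 libraries (adjusted p = 0.00095). Without iron citrate replicate 3 it was 1.68 (edgeR adjusted p = 0.406).

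*Mafk* had 52.3, 41.0, 80.4 and 45.7 CPM in iron citrate replicates 1 to 4, against 16.8, 29.3, 33.0 and 52.3 CPM in citrate buffer replicates 1 to 4. The highest buffer library was above iron citrate replicates 2 and 4 and level with iron citrate replicate 1. Its log2 fold change was 0.74 (SE 0.33, edgeR adjusted p = 0.333), and 0.53 (SE 0.23) without citrate buffer replicate 1 (edgeR adjusted p = 0.342). As for *Maff*, iron citrate replicate 3 was the highest library. The Kupffer cell markers *Clec4f* and *Vsig4* were also highest there (94.1 and 202 CPM) and lowest in citrate buffer replicate 1 (5.90 and 22.95 CPM). *Lyz2*, of the same list, was highest in citrate buffer replicate 1 (952 CPM). The part of Kupffer cells in the *Maff* and *Mafk* values was not tested.

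*Osgin1*, a target of NRF2 whose product restrains cell growth, had 203, 150.0, 200.4 and 210 CPM in iron citrate replicates 1 to 4, against 11.5, 33.15, 31.7 and 31.4 CPM in citrate buffer replicates 1 to 4. The groups were far apart, and citrate buffer replicate 1 was well below the rest of its group. The means were 191 ± 27.6 CPM in iron citrate libraries and 26.95 ± 10.3 CPM in citrate buffer libraries (SD, n = 4 each). The log2 fold change of 2.82 (SE 0.31, edgeR adjusted p = 0.00229) ranked 13 from the top among the 14601 tested targets. Without citrate buffer replicate 1 the gene rose 5.94-fold (edgeR adjusted p = 6.67e-08).

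**Figure D2:**
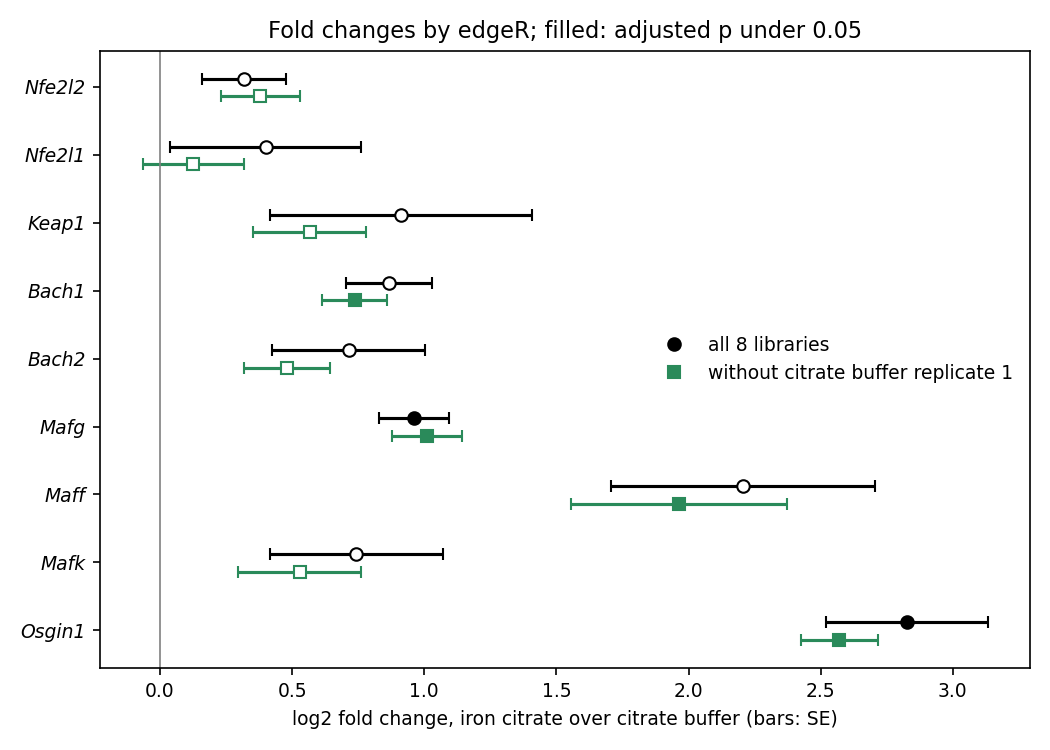
Log2 fold changes of iron citrate over citrate buffer (x axis, bars are SE, edgeR) for the 9 genes, from all 8 libraries (black circles) and without citrate buffer replicate 1 (green squares), filled where the adjusted p was under 0.05. *Osgin1* and *Mafg* are filled in both fits, while *Bach1* and *Maff* are filled only without that library, and the estimates of *Keap1*, *Nfe2l1* and *Bach2* are nearer 0 without it.

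The bases before the starts of these genes were searched for binding elements of CNC factors, in the RefSeq promoter windows of build GRCm38.p6. Windows were found for all 9 genes, 15 in all, and the 250 bases upstream of each start were read on both strands. Searched were TGACNNNGC, the core of the antioxidant response element, TGAGTCA, the AP-1 type core, and a longer element of CNC and small MAF pairs. That element is the run in capitals in the *Osgin1* window, with any base allowed before its last TCA. It overlaps the AP-1 type core wherever N is C or G on the strand read. Of 32817 windows of this length in the table, 10.2% held the first, 4.46% the second and 0.353% the third. Of the 9 genes, 5 held a match of any kind, in 1 window each. The shares above are per window and per element, so this count per gene cannot be set beside them. The windows of the 2 genes that rose are shown in full, read along the gene's strand, with the matches in capitals.

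*Osgin1* (chr8:119436897-119437146, plus strand): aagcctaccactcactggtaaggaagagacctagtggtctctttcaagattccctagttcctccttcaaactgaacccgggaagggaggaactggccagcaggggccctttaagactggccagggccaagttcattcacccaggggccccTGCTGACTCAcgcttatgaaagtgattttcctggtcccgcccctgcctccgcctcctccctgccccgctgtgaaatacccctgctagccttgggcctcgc
*Mafg* (chr11:120633548-120633797, minus strand): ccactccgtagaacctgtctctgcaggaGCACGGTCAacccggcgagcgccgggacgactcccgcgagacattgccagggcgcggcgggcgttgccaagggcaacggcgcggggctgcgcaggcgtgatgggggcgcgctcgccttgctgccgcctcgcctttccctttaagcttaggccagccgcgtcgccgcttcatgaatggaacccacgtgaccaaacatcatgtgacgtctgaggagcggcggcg

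In *Osgin1* the match was to the CNC and small MAF element, 100 bases before the start, and it contains the AP-1 type core. In *Mafg* it was to the antioxidant response element core on the opposite strand, 222 bases before the start. The other 3 genes with a match held the antioxidant response element core. It lay 240 bases before the start in *Nfe2l2*, 112 bases before 1 of the starts of *Maff*, and 13 bases before the start of *Mafk*, on the opposite strand in the last. Their surroundings are shown to let the letters at the 3 N positions be compared.

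*Nfe2l2* (chr2:75704895-75704903, minus strand): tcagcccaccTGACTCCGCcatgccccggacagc
*Maff* (chr15:79346509-79346517, plus strand): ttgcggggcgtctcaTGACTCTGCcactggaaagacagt
*Mafk* (chr5:139791523-139791531, plus strand): cgcgcgatcccggaaGCGGTGTCAgtac

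The coordinates are those of the capitals. *Keap1*, *Bach1*, *Bach2* and *Nfe2l1* held none of these letters in their windows. A match is a string of letters and not a measured site, and elements farther from the start were not searched.

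To ask whether partners moved unequally, the log2 ratio of the counts of 2 members was taken within each library, which needs no scaling factor. There were 7 such ratios, each compared between 4 and 4 libraries by a two-sided exact permutation test whose smallest possible p is 0.0286. The ratio of *Maff* over *Mafk* was -2.12 ± 0.48 in iron citrate libraries and -3.44 ± 0.23 in citrate buffer libraries (SD, n = 4 each, exact p = 0.0286), and it was the only ratio whose groups did not overlap. Adjusted over the 7 ratios its p was 0.2. *Maff* over *Mafg* differed by 1.16 (exact p = 0.0857, adjusted p = 0.2), and *Mafk* over *Mafg* by -0.16 (exact p = 0.771, adjusted p = 0.8286). *Bach1* over *Nfe2l2* was -1.09 ± 0.39 in iron citrate libraries and -1.68 ± 0.43 in citrate buffer libraries (exact p = 0.0857, adjusted p = 0.2). *Keap1* over *Nfe2l2* differed by 0.99 (exact p = 0.257), with citrate buffer replicate 1 at -6.17 and every other library between -3.91 and -2.44. The differences were 0.28 for *Nfe2l1* over *Nfe2l2* (exact p = 0.743) and -0.07 for *Bach2* over *Bach1* (exact p = 0.8286). Citrate buffer replicate 1 bore on most of these differences. Without it *Keap1* over *Nfe2l2* differed by 0.25, *Maff* over *Mafg* by 0.77, *Bach1* over *Nfe2l2* by 0.38 and *Maff* over *Mafk* by 1.26. *Mafk* over *Mafg* then differed by -0.49, *Bach2* over *Bach1* by -0.24 and *Nfe2l1* over *Nfe2l2* by -0.19. No ratio passed after adjustment with or without that library. A lone ratio at the smallest possible p is adjusted to 0.2 over the 7 ratios, so none could have passed by itself. The lack of a call therefore does not show that the members moved alike.

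**Figure D3:**
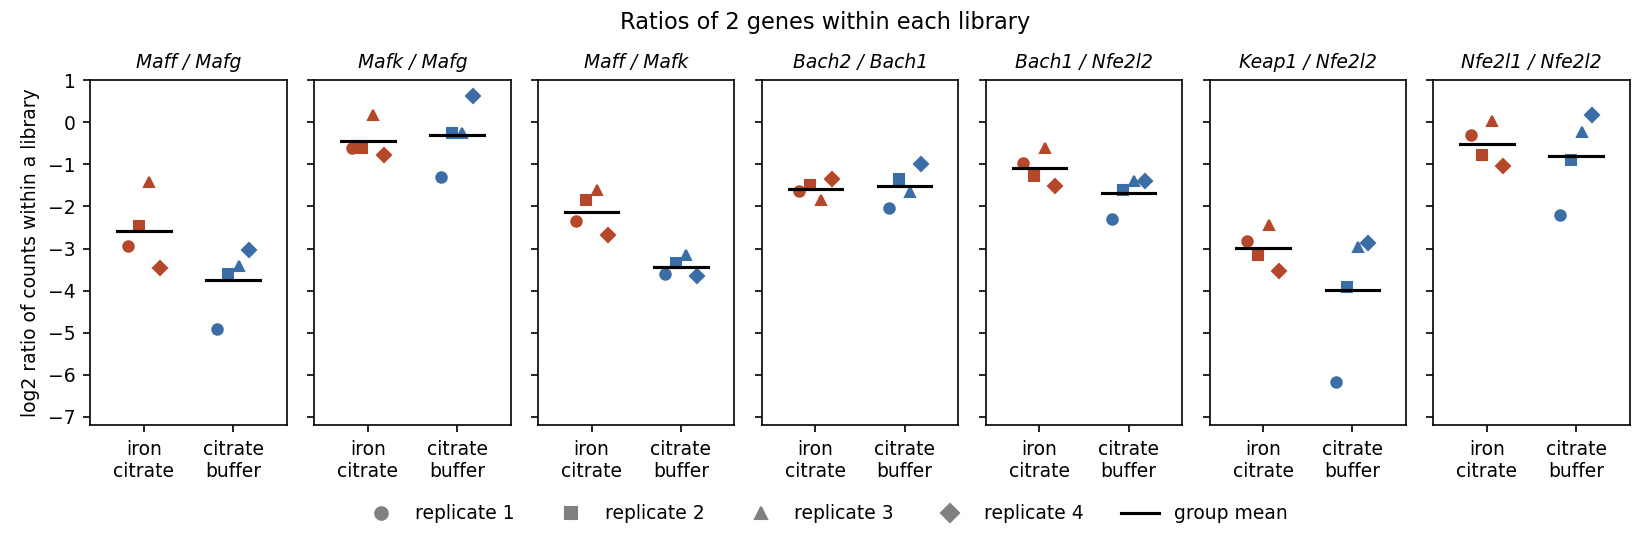
Log2 ratio of the counts of 2 genes within each library (y axis) in iron citrate (red) and citrate buffer (blue) libraries, with the replicate shown by the marker and the group mean by a line. *Maff* over *Mafk* is the only panel in which the 4 iron citrate libraries all lie above the 4 citrate buffer libraries, and citrate buffer replicate 1 is the lowest library in 6 of the 7 panels.

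The genes that these factors are known to control were described from lists, which were chosen with earlier results of these data known. Of 36 tested NRF2 targets, *Osgin1* and *Mafg* left out, 21 rose and 0 fell, beside 0.527% and 0.0274% of all tested targets. Their median log2 fold change was 1.37. DESeq2, limma-voom and edgeR without citrate buffer replicate 1 each called 24 higher, beside 1.94%, 1.69% and 1.5% of all tested targets. The count was 20 with the replicate block and without citrate buffer replicate 3 or 4, and 19 without citrate buffer replicate 2 or any 1 of the iron citrate libraries. The 12 with the smallest p were *Txnrd1*, *Nqo1*, *Gclm*, *Hmox1*, *Akr1b8*, *Gclc*, *Slc40a1*, *Srxn1*, *Blvrb*, *Gsr*, *Gstm1* and *Aox1*, and the other 9 called were *Pgd*, *Cat*, *Pir*, *Esd*, *Abcc4*, *Tkt*, *Slc48a1*, *Taldo1* and *Txn1*. *Gclc*, which catalyses the first step of glutathione synthesis, averaged 313 ± 43.15 CPM in iron citrate libraries and 61.8 ± 8.28 CPM in citrate buffer libraries (edgeR adjusted p = 7.22e-05). Glutathione reductase (*Gsr*) averaged 163 ± 14.2 CPM in iron citrate libraries and 36.1 ± 7.75 CPM in citrate buffer libraries (edgeR adjusted p = 0.000324), and the biliverdin reductase *Blvrb* 508 ± 49.6 CPM in iron citrate libraries and 77.1 ± 21.7 CPM in citrate buffer libraries (edgeR adjusted p = 0.000245). The thioredoxin reductase *Txnrd1* rose 10.4-fold, the regulatory subunit of glutathione synthesis *Gclm* 13.2-fold and the sulfiredoxin *Srxn1* 17.5-fold. The iron exporter ferroportin (*Slc40a1*) rose 6.39-fold and the aldehyde oxidase *Aox1* 7.95-fold. The aldo-keto reductase *Akr1b8* rose 6.34-fold and the glutathione transferase *Gstm1* 4.06-fold, and both belong to families whose members can share reads. The cystine importer *Slc7a11* was near the limit of detection, at 0.773 ± 0.372 CPM in iron citrate libraries and 0.951 ± 0.236 CPM in citrate buffer libraries (edgeR adjusted p = 0.743).

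Of 12 tested genes on a list of BACH1-repressed genes, 8 rose and 0 fell, beside 0.527% and 0.0274% of all tested targets, with a median log2 fold change of 2.51. The edgeR count was 9 higher without citrate buffer replicate 1, beside 1.5% of all targets. Of the 8, *Hmox1*, *Blvrb*, *Slc40a1* and the haem transporter *Slc48a1* belong to haem and iron handling, and *Txnrd1*, *Nqo1*, *Gclm* and *Gclc* to thioredoxin, quinone and glutathione metabolism. All 8 also stand on the NRF2 list, so the lists do not separate the factors. *Hmox1*, the haem oxygenase best known as a BACH1 target, had a log2 fold change of 5.19 (SE 0.26), and the quinone reductase *Nqo1*, best known as an NRF2 target, one of 4.75 (SE 0.21), with edgeR adjusted p-values of 1.19e-05 and 5.71e-06. *Alas1*, the first enzyme of haem synthesis, averaged 52.2 ± 4.60 CPM in iron citrate libraries and 43.0 ± 5.46 CPM in citrate buffer libraries (edgeR adjusted p = 0.333). The amplicon of *Fth1*, the ferritin heavy chain, gave on average 0.023 CPM in iron citrate libraries and 0.0569 CPM in citrate buffer libraries and was not tested. Values so near 0 cannot tell a silent gene from an amplicon that does not read it, so they do not show the level of *Fth1*.

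The machinery around the factors was described in the same way. Over all tested targets edgeR called 0.527% higher and 0.0274% lower, so a short list is likely to hold 0 calls. An edgeR count of 0 in the lists below is therefore not a result about their genes. Of 20 tested genes of the KEAP1-CUL3 ligase, NRF2 turnover and competitors for KEAP1, edgeR called 0, with a median log2 fold change of 0.17. At an unadjusted p under 0.05, 3 were higher and 0 lower, beside 6.57% and 8% of all tested targets. The scaffold *Cul3* averaged 141 ± 5.56 CPM in iron citrate libraries and 142 ± 36.1 CPM in citrate buffer libraries. *Sqstm1*, the autophagy receptor that binds KEAP1, averaged 887 ± 116 CPM in iron citrate libraries and 300.4 ± 125 CPM in citrate buffer libraries, with groups that did not overlap and a log2 fold change of 1.56 (SE 0.32, edgeR adjusted p = 0.0888). *Niban2* had a log2 fold change of 0.76 (edgeR adjusted p = 0.147). Both passed without citrate buffer replicate 1, where 1.5% of all targets were called higher. DESeq2 and limma-voom each called 2 genes of this list higher, beside 1.94% and 1.69% of all targets.

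None of 5 BACH1 turnover genes was called by edgeR, DESeq2 or limma-voom, and 0 passed an unadjusted p under 0.05. The F-box protein *Fbxo22*, which targets BACH1, had a log2 fold change of 0.26 (edgeR adjusted p = 0.442), and *Hmmr* one of 0.30 (adjusted p = 0.726). Of 9 NRF1 processing genes edgeR called 0, and 1 was higher and 1 lower unadjusted, beside the same 6.57% and 8% of all targets. *Hcfc1*, a transcriptional cofactor, had a log2 fold change of 0.86 (edgeR adjusted p = 0.088), and the protease gene *Ddi1* one of -1.02 (adjusted p = 0.333). That of *Ddi1* was -0.49 without citrate buffer replicate 1 (edgeR adjusted p = 0.485). *Hcfc1* passed without citrate buffer replicate 1 (log2 fold change 0.73, edgeR adjusted p = 0.011). It was the 1 gene of that list that DESeq2 and limma-voom called higher, beside 1.94% and 1.69% of all targets. Of 29 proteasome genes, the known targets of NRF1, edgeR called 0, 5 were higher and 0 lower unadjusted (6.57% and 8% of all targets), and the median log2 fold change was 0.06. *Psme4*, a proteasome activator, had 0.71 (edgeR adjusted p = 0.124) and *Psmd1* 0.46 (adjusted p = 0.209). In the fit without citrate buffer replicate 1 edgeR called 2 higher, beside 1.5% of all targets. They were *Psme4* (log2 fold change 0.64, adjusted p = 0.0342) and the lid subunit *Psmd7* (0.62, adjusted p = 0.0136). DESeq2 called 2 proteasome genes higher and limma-voom 3, beside 1.94% and 1.69% of all targets.

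Among 19 tested other CNC, large MAF, AP-1 and ATF factors edgeR called 0 with all libraries and without citrate buffer replicate 1. Unadjusted, 2 were higher and 1 lower (6.57% and 8% of all targets). DESeq2 and limma-voom called 1 higher, beside 1.94% and 1.69% of all targets. So did edgeR without citrate buffer replicate 4, beside 72 of 14810 targets. *Jdp2*, a bZIP repressor, averaged 124 ± 29.7 CPM in iron citrate libraries and 42.65 ± 24.1 CPM in citrate buffer libraries (log2 fold change 1.55, edgeR adjusted p = 0.147). *Atf6*, a sensor of endoplasmic reticulum stress, had a log2 fold change of 0.36 (edgeR adjusted p = 0.333). The large MAF *Maf* averaged 1663 ± 162 CPM in iron citrate libraries and 2123 ± 271 CPM in citrate buffer libraries (log2 fold change -0.35, edgeR adjusted p = 0.333) and the CNC factor *Nfe2* 3.53 ± 0.55 CPM in iron citrate libraries and 3.65 ± 2.28 CPM in citrate buffer libraries (edgeR adjusted p = 0.96). Of 14 coactivators, repressors and kinases 1 rose, the cell cycle inhibitor *Cdkn1a*, at 2.01-fold (edgeR adjusted p = 0.012), beside 0.527% of all tested targets called higher. Its log2 fold change was 1.02 without citrate buffer replicate 1 (edgeR adjusted p = 0.00131). The call was lost when citrate buffer replicate 3, iron citrate replicate 3 or iron citrate replicate 4 was left out, with library totals or upper-quartile factors, and with the replicate block. The acetyltransferase *Crebbp*, a coactivator of NRF2, had a log2 fold change of 0.24 (edgeR adjusted p = 0.349).

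**Figure D4:**
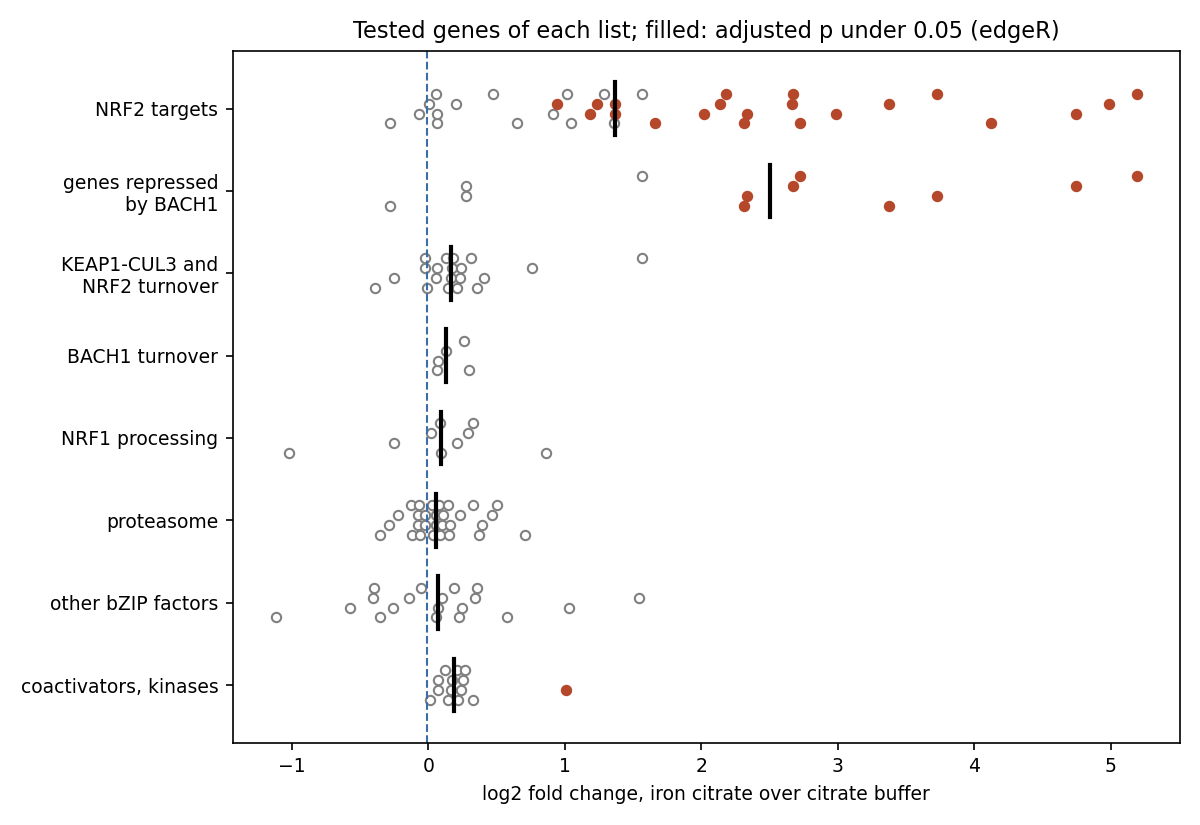
Log2 fold change of iron citrate over citrate buffer (x axis, edgeR) of each tested gene in 8 lists, filled where the adjusted p was under 0.05, with each list's median as a black bar and the median of all tested targets, -0.01, as a dashed line. Of the NRF2 targets 21 of 36 are filled and of the genes BACH1 represses 8 of 12, while of the other 6 lists only the coactivators and kinases hold a filled point, *Cdkn1a*.

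The genes whose pattern over the 8 libraries was most like each member were found by Pearson's r of log2 CPM, as a description, since the libraries share 2 groups and the library that stands apart. For *Osgin1* they were the metallothionein *Mt1* (r = 0.994), the pentose phosphate enzyme *Pgd* (0.991) and *Gstm1* (0.987), all 3 called higher. For *Mafg* they were the thioredoxin reductase *Txnrd1* (0.974), *Tfec* (0.973) and *C77080* (0.970), also all called higher. With group means removed r was 0.937, 0.908 and 0.872 for the first 3 and 0.569, 0.494 and 0.349 for the second 3. *Bach1* was most like *Asah1* (0.997), *Esr1* (0.996) and *Itpripl2* (0.993), none of them called, and *Maff* most like *Rheb*, *Map2k3* and *Zfp871* (r of 0.982, 0.976 and 0.976). *Keap1* had r of 0.999 with *Ctdp1*, 0.997 with *Sestd1* and 0.995 with *Limk2*, and *Nfe2l1* 0.998 with *Mfn1* and 0.995 with both *Arhgap31* and *Mprip*. For these 6 genes r did not fall below 0.994 with group means removed. *Nfe2l2* was most like *Zfp318* (0.952), *Ftx* (0.934) and *Snx30* (0.926), *Bach2* most like *Pkd2* (0.990), *Cdyl* (0.989) and *Sirt2* (0.987), and *Mafk* most like *Phf13* (0.989), *Pink1* (0.988) and *Prrg3* (0.983). Among the members themselves *Bach1* and *Osgin1* had r of 0.982 and *Nfe2l1* and *Keap1* 0.970, while *Nfe2l2* had between -0.092 and 0.674 with the other 8.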

How the data were processed

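Libraries of sorted cells were made with the Ion AmpliSeq mouse gene expression panel, per the labels' protocols. The deposited values are raw counts, with 23930 RefSeq targets in each library's table. The submitters' processing notes name HTSeq 0.6.0 and DESeq2 1.18.1. No source used here names the aligner, genome build or read filters, so only RefSeq promoter windows carry coordinates. The design text speaks of 5 mice per group; 4 libraries per group were analysed here. HTSeq's summary lines, 2.15% to 4.60% of reads, were left out. Accessions were matched to symbols in the reference tables, and 1368 had no match.

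Counts were tested with edgeR 4.0.16 in R 4.3.3 (filterByExpr, TMM factors, robust quasi-likelihood F-test), with p-values adjusted over all 14601 tested targets and SE derived from the F statistic. The titles label each library as a mouse of its own, and p-values reflect the spread among these libraries. No library pair within a group was a duplicate (chi-square per degree of freedom at least 8.34). In simulated counts of the iron citrate and citrate buffer design, 34 of 100 genes with a true log2 change of 1 were called by edgeR, as were 83 of 100 with a true log2 change of 2 and 11 of 14303 with none. The simulated libraries shared a common profile, without a library that stands apart, and changes were placed only in well-counted genes. These rates therefore do not describe genes with few counts, or what citrate buffer replicate 1 did to the calls. Ratios used counts plus 0.5. Likeness used log2 of CPM plus 0.5 over all tested targets, for members with a mean of at least 5 CPM, which all 9 had. Alternatives were other scaling factors, DESeq2 1.42.0, limma-voom (limma 3.58.1), other filters, a replicate block and libraries left out. Members, gene lists and tests were chosen with earlier results of these data known. Named were the 9 members, the called genes of each list up to 12 by smallest p, or the 2 with the smallest p where none was called, *Hmox1* and *Nqo1*, and the 3 genes most like each member. *Slc7a11*, *Alas1*, *Fth1*, *Cul3*, *Maf*, *Nfe2*, *Crebbp*, *Psmd7*, the called genes beyond 12 and the further markers were chosen after their values were seen.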

Additional observations from a re-analysis of the deposited data

Results flagged for a closer look

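Both groups of *Osgin1* held a library far from the other 3 of its group, by the gap to its nearest neighbour over the whole range. Iron citrate replicate 2 had 150.0 CPM, below the rest of its group, and citrate buffer replicate 1 had 11.5 CPM, below the rest of its group. Among 32 groups of 4 checked (18 of gene levels and 14 of ratios) these 2 stood out, and chance gives about 1 in 20. *Osgin1* passed the edgeR threshold without either library.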

How the results depend on the processing

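*Osgin1* passed under all 17 alternatives. *Bach1* also passed with DESeq2 (log2 fold change 0.84), library totals (0.78), upper-quartile factors (0.76), limma-voom (0.72), a mean CPM of at least 5 (0.85) and without citrate buffer replicates 1 and 2 (0.69). *Maff* passed with DESeq2 (2.17). Over all targets, calls higher and lower numbered 283 and 69 with DESeq2, 247 and 43 with limma-voom, and 200 and 81 without citrate buffer replicates 1 and 2, where *Nfe2l1* turned to -0.10. DESeq2 called 4 members higher. The replicate block gave 43 calls higher, 0 lower and 1 member, with *Mafg* at 0.96 (edgeR adjusted p = 0.0517), and *Cdkn1a* lost its call. Same-numbered libraries, by the numbers in the titles, deviated together with r of -0.015, 0.159, 0.625 and -0.329, and not every library correlated best with its own number. The labels name no pairs, and so few values cannot decide whether there were any. Other names in the deposit number the citrate buffer libraries differently from the titles, and the replicate block rests on the titles' numbers. With 1 library left out, calls ranged from 45 to 221 higher and from 0 to 38 lower, and members called higher from 1 to 4. The log2 fold change ranged from 0.74 to 0.94 for *Bach1*, from 0.92 to 1.03 for *Mafg* and from 1.68 to 2.42 for *Maff*. Edges of the edgeR adjusted p were 0.00438 and 0.253, 0.000559 and 0.057, and 0.0225 and 0.457 for these genes. The ratio differences ranged from -0.49 to 0.15 for *Mafk* over *Mafg*, from -0.24 to 0.10 for *Bach2* over *Bach1* (0.02 without iron citrate replicate 3), and from -0.19 to 0.60 for *Nfe2l1* over *Nfe2l2*. Upper-quartile factors moved the median of all targets by -0.11. The cause was not tested. Depth limits *Maff* and *Keap1* most, with 14 and 30 counts in citrate buffer replicate 1.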
